A study of Mus musculus with 6 samples.

Results

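Lysosomes are the acidic compartments in which cells break down what they take up or recycle, and macrophages hold many of them. The genes described here are 49 genes of the lysosome, of the 54532 gene identifiers in the files. These genes were chosen by name from textbook roles, with earlier results of these data known. They fall into 34 genes of hydrolases and membrane proteins and 15 genes of the vacuolar proton pump (V-ATPase) and its accessory proteins. Every one of the 49 was found, and all 49 passed the filter on low values (a mean of at least 1 FPKM over the 6 libraries). FPKM counts fragments relative to transcript length and library total, so levels of different genes can be set side by side per length.

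RNA was sequenced from immortalised bone marrow-derived macrophages (iBMDM), mouse marrow macrophages made to divide without end in culture. Of the 6 libraries, 3 came from cells infected with a short hairpin RNA against PGAM5 (PGAM5 knockdown, PGAM5 KD) and 3 from cells infected with one against DRP1, the product of Dnm1l (DRP1 knockdown, DRP1 KD). PGAM5 is a protein phosphatase of mitochondria and DRP1 is the GTPase that divides them. All cells of both groups received interleukin-4 (IL-4) at 10 ng/ml for 24 h, a cytokine that drives macrophages towards an anti-inflammatory state, whose induction the series studies. A difference below is therefore between the knockdowns, and cells with an untargeted hairpin or without IL-4 are not analysed here. A gene said to fall had lower values in the PGAM5 KD than in the DRP1 KD, and one said to rise had higher values. Which of the knockdowns changed it cannot be told. The titles number the samples 1 to 3, and nothing says that a number is a culture or a hairpin of its own. Spread among samples of a group, on which the p-values rest, may thus be technical.

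Pgam5 itself averaged 4.91 ± 0.306 FPKM in the PGAM5 KD and 17.2 ± 0.143 FPKM in the DRP1 KD (SD, n = 3 each here and below), and Dnm1l averaged 17.9 ± 0.746 FPKM in the PGAM5 KD and 7.57 ± 0.55 FPKM in the DRP1 KD, so both targets went with their labels. The totals by which the FPKM were scaled, recovered from their steps, were 16111281 to 21933548 reads per library. PGAM5 KD library 3 stood apart from the others of its group, with a chi-square per gene of 7.17 and 5.08 against them, where the other pairs within groups gave 2.51 to 3.04. Of 10 macrophage markers 9 were tested, 4 were lower in the PGAM5 KD (Csf1r, Cd68, Lyz2 and Fcgr1) and none was higher. The summed level of the markers was 3776 to 3947 FPKM in the PGAM5 KD and 4827 to 4871 FPKM in the DRP1 KD. Lyz2 made 1272 FPKM of the mean sum in the PGAM5 KD and 1954 FPKM in the DRP1 KD. Adgre1, Itgam, Spi1, Ptprc and Cd14 were not called. Summed markers of fibroblasts (up to 0.023 FPKM), of T and B lymphocytes (up to 0.213), of neutrophils and mast cells (up to 0.607) and of dendritic cells (up to 0.535) stayed low in every library, and 4 of 6, 4 of 8, 4 of 8 and 0 of 6 of these markers were at 0 in all. In bulk samples, fewer cells of a type and less RNA per cell cannot be told apart.

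A lysosome works through 3 kinds of protein. Glycoproteins such as LAMP1 line its membrane, transporters carry the products of digestion out, and soluble hydrolases cut lipids, sugars and proteins. Most of these enzymes need acid, which the V-ATPase supplies: its cytosolic V1 sector splits ATP and turns a rotor, and its membrane V0 sector moves protons through a ring of c subunits. Many lysosomal genes carry the CLEAR element near their start site, the binding site of TFEB, TFE3 and MITF, which raise lysosomal genes together. Loss of single hydrolases causes the lysosomal storage diseases.

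The CLEAR element is the sequence feature that these genes are best known to share, so the windows that hold it are shown first. Windows ran from 250 bases before to 50 after the start site, were taken from RefSeq (GRCm38.p6), and existed for 41 of the 49 genes. Among these, 5 genes had more than 1 window (47 windows in all), and a gene was counted if any of its windows held the letters. They were searched on both strands for TCACGTGA, the core of the element, which reads the same on both strands and holds the shorter E-box CACGTG. The core was found in 4 of the 41 genes (9.756%), against 304 of 27025 genes with a window (1.125%) and 191 of the 7785 tested genes with a window (2.453%). Per window, the core was in 4 of 47 (8.51%), against 0.974% of all 32851 windows. Cln3 counts through a start site within the gene (126583236), while its window at the annotated 5′ start of the gene (126585817) holds neither motif. The only window of Atp6v1a is also at a start site within the gene (44139259). Its core thus lies inside the gene, whose annotated 5′ start (44139705) has no window. The E-box was found in 12 of 41 (29.268%), against 8.093% of all genes and 12.473% of tested genes with a window. Lgmn counts for the E-box through a start site within the gene (102439092), while its window nearer the 5′ end (102439728) holds neither motif. For 38 of the 47 windows, bases just after the start site were found in an annotated transcript of the gene. Below are the windows of the 4 genes with the core, of Lamp1, which holds 4 E-boxes, and of Ppt1, which holds neither and is the 1 gene of the 49 called higher in the PGAM5 KD. Capitals mark the motif letters, and each sequence runs from 5′ to 3′ along the gene's own strand.
Gla promoter, chrX:134600956-134601255, minus strand: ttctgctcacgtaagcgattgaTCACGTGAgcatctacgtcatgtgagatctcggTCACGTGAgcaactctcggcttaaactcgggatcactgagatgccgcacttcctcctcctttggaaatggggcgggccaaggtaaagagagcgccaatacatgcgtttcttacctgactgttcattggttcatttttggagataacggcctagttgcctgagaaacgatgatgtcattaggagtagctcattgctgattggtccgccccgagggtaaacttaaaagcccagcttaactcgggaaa
Atp6v0d1 promoter, chr8:105566015-105566314, minus strand: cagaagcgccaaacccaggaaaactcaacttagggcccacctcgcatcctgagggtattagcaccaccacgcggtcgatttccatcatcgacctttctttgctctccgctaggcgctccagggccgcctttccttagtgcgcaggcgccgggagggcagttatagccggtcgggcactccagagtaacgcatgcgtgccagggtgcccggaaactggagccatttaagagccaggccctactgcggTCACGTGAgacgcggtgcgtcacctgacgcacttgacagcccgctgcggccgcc
Atp6v1a promoter, chr16:44139210-44139509, minus strand: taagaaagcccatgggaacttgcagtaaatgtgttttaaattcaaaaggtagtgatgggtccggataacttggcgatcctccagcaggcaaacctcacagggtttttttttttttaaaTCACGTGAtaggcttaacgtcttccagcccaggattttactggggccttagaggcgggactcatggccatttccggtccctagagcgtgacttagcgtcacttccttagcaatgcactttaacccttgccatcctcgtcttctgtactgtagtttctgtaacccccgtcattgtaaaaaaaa
Cln3 promoter, chr7:126583187-126583486, minus strand: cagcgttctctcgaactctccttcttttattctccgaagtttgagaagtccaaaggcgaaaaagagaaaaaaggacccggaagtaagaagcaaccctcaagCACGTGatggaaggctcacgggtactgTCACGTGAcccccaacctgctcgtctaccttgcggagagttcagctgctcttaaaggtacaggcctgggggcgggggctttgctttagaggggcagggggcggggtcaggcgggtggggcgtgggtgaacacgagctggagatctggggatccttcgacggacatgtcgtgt
Lamp1 promoter, chr8:13158911-13159210, plus strand: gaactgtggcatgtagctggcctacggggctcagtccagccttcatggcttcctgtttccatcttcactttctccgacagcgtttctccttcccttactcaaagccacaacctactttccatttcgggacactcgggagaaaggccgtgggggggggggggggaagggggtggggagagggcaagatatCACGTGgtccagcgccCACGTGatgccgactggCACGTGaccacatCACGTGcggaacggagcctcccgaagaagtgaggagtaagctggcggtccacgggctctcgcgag
Ppt1 promoter, chr4:122835977-122836276, plus strand: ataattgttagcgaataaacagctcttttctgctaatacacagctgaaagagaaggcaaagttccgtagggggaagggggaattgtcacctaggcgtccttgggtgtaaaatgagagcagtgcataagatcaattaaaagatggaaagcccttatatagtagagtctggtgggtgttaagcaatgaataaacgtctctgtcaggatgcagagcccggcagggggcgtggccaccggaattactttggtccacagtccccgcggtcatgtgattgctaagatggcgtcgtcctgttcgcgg

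Counted from the start site, the first base of the core stood at -228 and -195 in Gla, at -132 in Atp6v1a, at -122 in Cln3 and at -4 in Atp6v0d1, where it spans the start. The E-boxes of Lamp1 began at -61, -45, -28 and -15. Genes with the letters lay on both sides of the threshold: the core was in 3 of 21 genes lower in the PGAM5 KD and 1 of 19 not called, and the E-box in 6 of 21 and 6 of 19. These shares are descriptions of letters in a window, and binding was not measured.

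**Figure D1:**
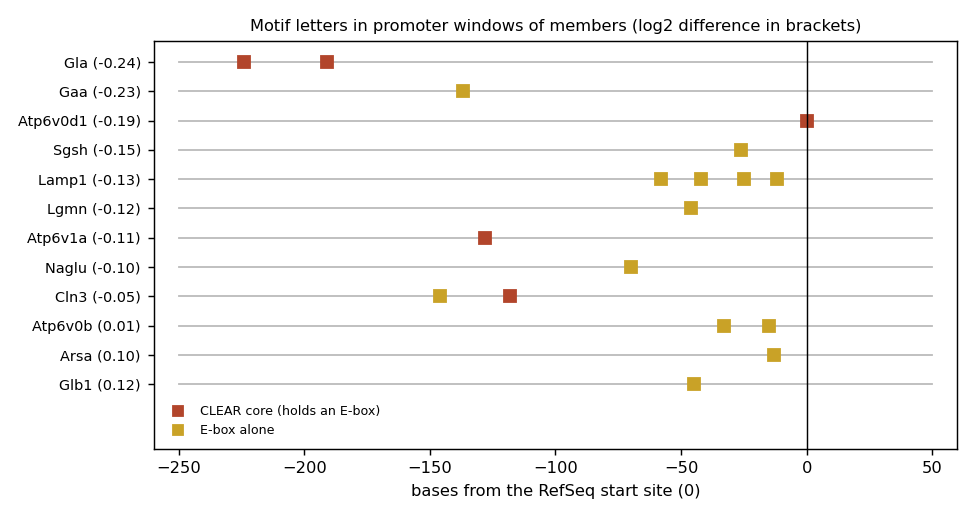
Position of motif letters in the promoter windows of the 12 genes that hold them. The horizontal axis is the distance in bases from the RefSeq start site, each row is a gene with its log2 difference (PGAM5 KD minus DRP1 KD), red squares are the core with its E-box and gold squares are E-boxes alone. The rows run from Gla at -0.24 to Glb1 at 0.12, and squares occur along that whole range.

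Transcripts of lysosomal proteins were mostly lower in the PGAM5 KD than in the DRP1 KD, by modest amounts. Of the 34 hydrolase and membrane genes, 19 (55.9%) fell, 1 rose and 14 were not called (limma on log2(FPKM + 1), Benjamini-Hochberg adjusted p under 0.05 over all 10634 genes tested). Of the 15 V-ATPase genes, 8 (53.3%) fell, none rose and 7 were not called. None of the V-ATPase genes rose at an unadjusted p under 0.05 either, nor with voom on recovered reads. Over all genes tested, 11.7% fell and 13.8% rose. The 49 genes were chosen with earlier results of these data known, so their shares describe the list and test nothing. The background of all genes tested, here and below, was not matched to the 49 genes in level. The median log2 difference was -0.13 for hydrolases and membrane proteins and -0.11 for the V-ATPase, where the median of all genes was 0.01 and their 25th and 75th percentiles were -0.10 and 0.11. On this scale the lowest was -0.44 (Atp6ap2). In mean FPKM the largest drop was 31.7% (Ids) and the largest rise 26.5% (Pla2g15), so no gene of the 49 differed by as much as 2-fold.

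The libraries of the groups did not overlap for 34 of the 49 genes: the PGAM5 KD lay below the DRP1 KD in 30 (22 hydrolase and membrane genes, 8 of the V-ATPase) and above it in 4. Among all genes tested, 20.5% had the PGAM5 KD below without overlap and 23.0% above. Taking each library's median distance from the DRP1 KD mean, hydrolases and membrane proteins lay at -0.124, -0.146 and -0.117 in PGAM5 KD libraries 1 to 3, against 0.001, 0.004 and 0.003 in the DRP1 KD libraries. For the V-ATPase genes these medians were -0.144, -0.109 and -0.099 in the PGAM5 KD libraries, against 0.007, 0.011 and -0.011 in the DRP1 KD libraries. Library 3 of the PGAM5 KD, which stood apart over all genes, was thus on the same side as the other two, and the same 19 and 8 genes were called lower without it. Leaving out each of the 6 libraries in turn gave 15 to 19 hydrolase and membrane genes and 6 to 8 V-ATPase genes lower.

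**Figure D2:**
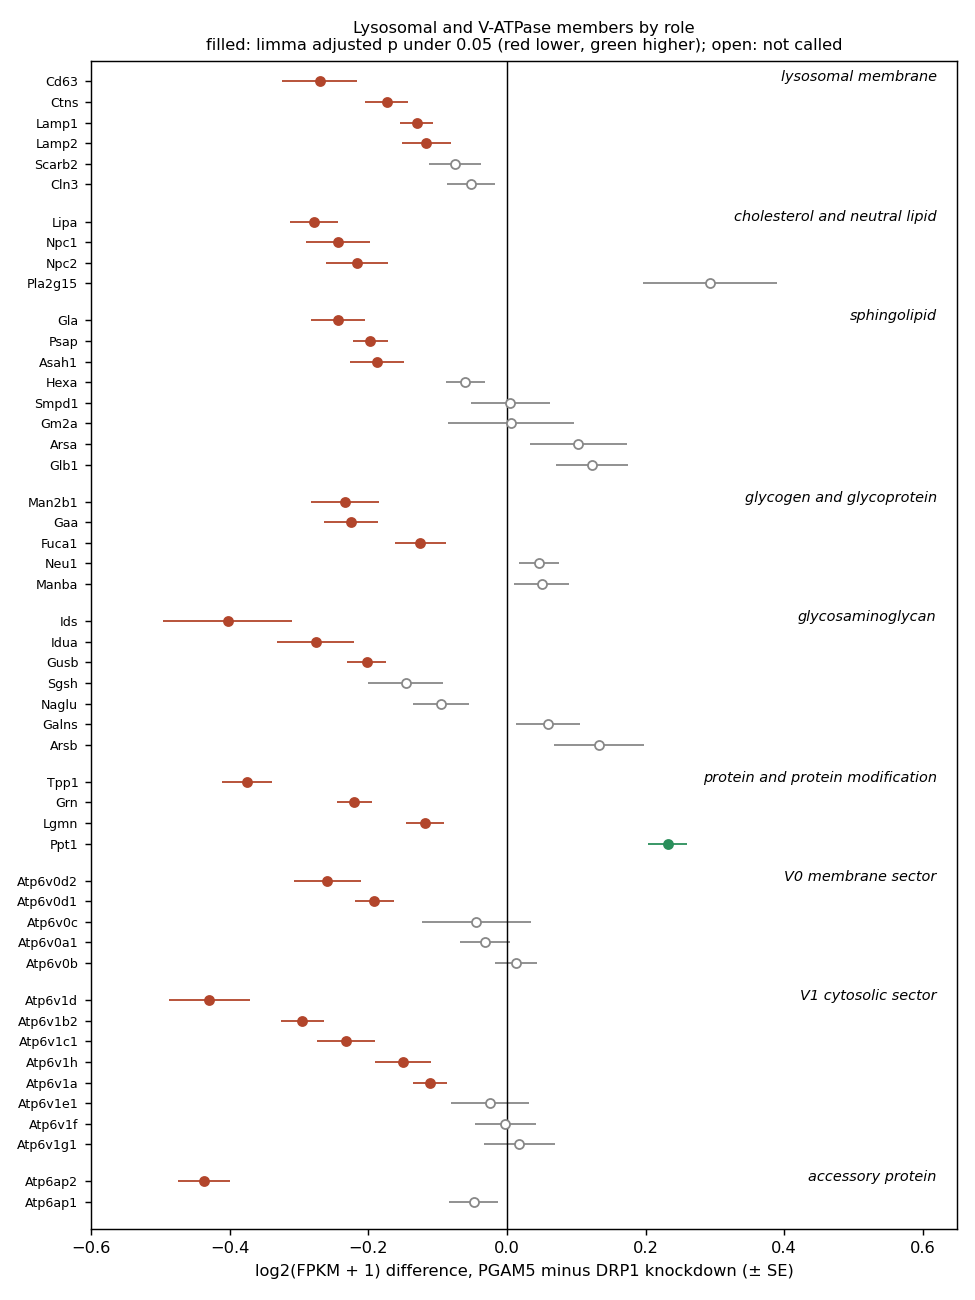
Log2(FPKM + 1) difference of each of the 49 genes, PGAM5 KD minus DRP1 KD, with its standard error (bars), grouped by role. Filled points passed the limma threshold (red lower, green higher) and open points did not. Of the 28 filled points, 27 lie left of 0 and Ppt1 lies right of it.

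**Figure D3:**
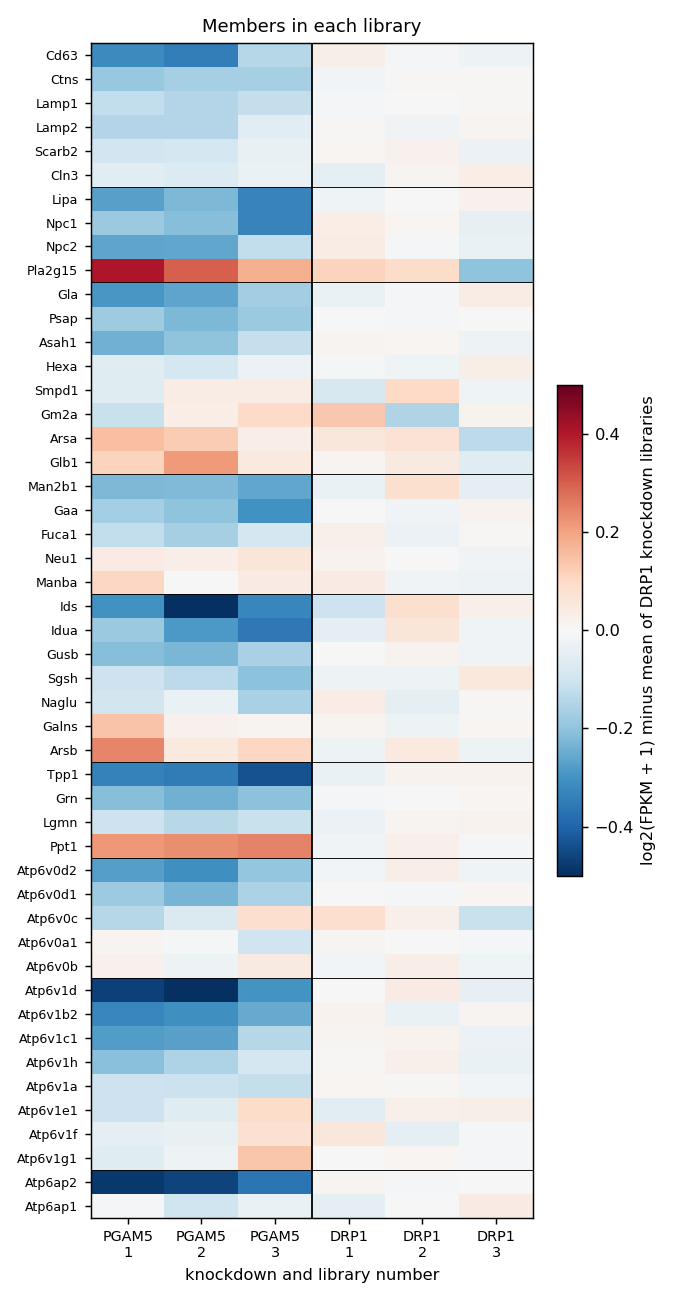
Each gene in each library, as log2(FPKM + 1) minus the mean of the 3 DRP1 KD libraries, from blue (lower) to red (higher). Columns are libraries, PGAM5 KD on the left, and rows are genes by role. The 3 PGAM5 KD columns are blue for most rows, and the red rows among them are few, with Ppt1 and Pla2g15 the deepest.

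Among the 6 lysosomal membrane proteins, 4 fell in the PGAM5 KD. Lamp1 (ENSMUSG00000031447, chromosome 8, 13159161 to 13175338, plus strand, mm10), one of the most abundant glycoproteins of the lysosomal membrane, stood at 462, 455 and 463 FPKM in the PGAM5 KD against 501, 504 and 506 FPKM in the DRP1 KD. The libraries of each group lay close together and apart from the other group (log2 difference -0.13, SE 0.024, adjusted p = 0.0077). Lamp2, its relative with a role in autophagy, had 38.9, 39.0 and 41.5 FPKM in the PGAM5 KD against 43.4, 42.6 and 43.6 FPKM in the DRP1 KD. Its groups also did not overlap (-0.12, SE 0.035, adjusted p = 0.048), but the call was lost on leaving out any single library except PGAM5 KD library 3 (adjusted p 0.1 to 0.14). Coding sequences of Lamp1 and Lamp2 were 59.5% identical; neither matched the other over at least 100 bases at 97% identity.

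Cd63, a tetraspanin of late endosomes and lysosomes, had the largest difference of the membrane proteins, with 118, 116 and 134 FPKM in the PGAM5 KD against 151, 147 and 145 FPKM in the DRP1 KD (-0.27, SE 0.054, adjusted p = 0.01). PGAM5 KD library 3 was the highest of its group and still below all DRP1 KD libraries. A processed copy, Cd63-ps, matches 188 bases of it at 98.4% identity and was listed at 42.7, 44.6 and 50.7 FPKM in the PGAM5 KD against 59.4, 53.1 and 53.9 FPKM in the DRP1 KD, so part of the reads may have been divided between the rows, and the level of Cd63 is uncertain. Ctns, which exports cystine from the lysosome, had 14.0, 14.2 and 14.3 FPKM in the PGAM5 KD against 16.0, 16.2 and 16.2 FPKM in the DRP1 KD (-0.17, SE 0.031, adjusted p = 0.0072). These groups did not overlap. Scarb2, the receptor that delivers glucocerebrosidase, had a log2 difference of -0.08 with groups that did not overlap (adjusted p = 0.2). Cln3, the gene of juvenile Batten disease, had -0.05 with overlapping groups (adjusted p = 0.32), and the files do not say whether its reads were kept apart from those of Apobr on the other strand, which overlaps it and was higher in the PGAM5 KD (20.2 ± 1.42 FPKM in the PGAM5 KD against 15.1 ± 0.514 FPKM in the DRP1 KD).

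Of 4 genes grouped under cholesterol and neutral lipid, 3 fell, and these 3 free and export cholesterol. Lipa, the acid lipase that releases cholesterol from its esters, had 70.6, 73.0 and 67.6 FPKM in the PGAM5 KD against 84.2, 85.4 and 86.9 FPKM in the DRP1 KD. The groups did not overlap (-0.28, SE 0.035, adjusted p = 0.0015). Npc2, which takes free cholesterol from the lumen, had 40.7, 40.7 and 44.8 FPKM in the PGAM5 KD against 50.3, 48.7 and 47.9 FPKM in the DRP1 KD (-0.22, SE 0.045, adjusted p = 0.012, and 0.051 without DRP1 KD library 1). Npc1, the membrane protein that NPC2 hands cholesterol to, had 27.6, 27.0 and 24.8 FPKM in the PGAM5 KD against 32.2, 31.7 and 30.6 FPKM in the DRP1 KD (-0.24, SE 0.046, adjusted p = 0.0084). All 3 had every PGAM5 KD library below every DRP1 KD library. Pla2g15, a phospholipase of the lysosome that was placed in this group, lay on the other side. It had 7.12, 6.55 and 5.94 FPKM in the PGAM5 KD against 5.62, 5.54 and 4.34 FPKM in the DRP1 KD. Its groups did not overlap, but the spread within them was wide and it was not called (0.29, SE 0.097, adjusted p = 0.065).

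Sphingolipid breakdown was divided: 3 of its 8 genes fell and 5 were not called. Gla, the α-galactosidase that trims globosides and the gene with a pair of CLEAR cores above, had 68.2, 69.5 and 74.0 FPKM in the PGAM5 KD against 81.7, 83.3 and 85.9 FPKM in the DRP1 KD (-0.24, SE 0.039, adjusted p = 0.0043). Psap, whose product is cut into the saposins that lift sphingolipids out of membranes for the enzymes, was the most abundant of the 8, with 293, 284 and 292 FPKM in the PGAM5 KD against 333, 331 and 332 FPKM in the DRP1 KD (-0.20, SE 0.025, adjusted p = 0.0018). Asah1, acid ceramidase, had 42.5, 43.7 and 46.5 FPKM in the PGAM5 KD against 51.0, 50.8 and 49.6 FPKM in the DRP1 KD (-0.19, SE 0.039, adjusted p = 0.012). None of these 3 overlapped between groups. The other 5 had log2 differences of -0.06 to 0.12 and included Hexa, the α subunit of β-hexosaminidase, at 261 ± 5.3 FPKM in the PGAM5 KD and 272 ± 5 FPKM in the DRP1 KD, and Glb1, β-galactosidase, at 15.2 ± 0.932 FPKM in the PGAM5 KD and 13.9 ± 0.537 FPKM in the DRP1 KD. Both had groups that did not overlap, in opposite directions, with adjusted p = 0.17 for Hexa and 0.13 for Glb1. Smpd1 (acid sphingomyelinase), Gm2a (an activator of ganglioside breakdown) and Arsa (arylsulfatase A) overlapped between the groups. The median of the 8 was -0.03, nearer to that of all genes than in the other roles of hydrolases and membrane proteins.

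Of 5 genes for glycogen and the sugar chains of glycoproteins, 3 fell. Gaa, the acid α-glucosidase that digests glycogen and is missing in Pompe disease, had 58.8, 57.4 and 53.5 FPKM in the PGAM5 KD against 66.3, 65.3 and 67.0 FPKM in the DRP1 KD (-0.22, SE 0.039, adjusted p = 0.0062). Man2b1, an α-mannosidase, had 6.28, 6.29 and 6.11 FPKM in the PGAM5 KD against 7.31, 7.98 and 7.23 FPKM in the DRP1 KD (-0.23, SE 0.049, adjusted p = 0.012). In both genes every PGAM5 KD library was below every DRP1 KD library. Fuca1, a fucosidase, had 16.0, 15.5 and 16.4 FPKM in the PGAM5 KD against 17.8, 17.1 and 17.6 FPKM in the DRP1 KD (-0.12, SE 0.037, adjusted p = 0.044). Its call, too, was lost when any single library was left out except PGAM5 KD library 3, with adjusted p 0.077 to 0.14. Neu1, the sialidase, and Manba, β-mannosidase, had log2 differences of 0.05 each and were not called, although the PGAM5 KD libraries of Neu1 (31.7 to 32.4 FPKM) all lay above the DRP1 KD libraries (30.6 to 31.4 FPKM).

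Enzymes of glycosaminoglycan breakdown are needed in sequence, each removing 1 kind of group from the end of the chain. The first steps on heparan and dermatan sulfate, Ids (iduronate sulfatase) and Idua (α-iduronidase), both fell. Ids had 2.42, 1.81 and 2.36 FPKM in the PGAM5 KD against 2.92, 3.45 and 3.28 FPKM in the DRP1 KD, from 590 and 918 reads in the 3 libraries of each group. It was the lowest in level of the 49 genes and had the largest drop among the hydrolases (-0.40, SE 0.093, adjusted p = 0.018), but the call was lost without DRP1 KD library 2 (adjusted p = 0.069) or 3 (adjusted p = 0.064). Idua had 9.32, 8.63 and 8.17 FPKM in the PGAM5 KD against 10.4, 11.2 and 10.6 FPKM in the DRP1 KD (-0.28, SE 0.055, adjusted p = 0.011). Gusb, β-glucuronidase, was the most abundant of the 7, with 158, 156 and 163 FPKM in the PGAM5 KD against 183, 185 and 181 FPKM in the DRP1 KD (-0.20, SE 0.028, adjusted p = 0.0025). In none of these 3 did the groups overlap. The other 4 were not called: Sgsh (sulfamidase) at -0.15 and Naglu (an N-acetylglucosaminidase) at -0.09 on one side, Galns at 0.06 and Arsb (both sulfatases) at 0.13 on the other.

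All 4 genes grouped under proteins and their modification were called, 3 lower and 1 higher. Tpp1 (ENSMUSG00000030894, chromosome 7, 105744811 to 105752235, minus strand), the tripeptidyl peptidase missing in late infantile Batten disease, had 60.2, 59.6 and 56.2 FPKM in the PGAM5 KD against 74.5, 77.4 and 77.3 FPKM in the DRP1 KD. That was the largest difference among the hydrolases called lower in all 14 alternative settings (-0.38, SE 0.036, adjusted p = 0.00047). Grn, progranulin, a secreted and lysosomal protein cut into granulins, was the most abundant of all 49 genes, with 511, 502 and 514 FPKM in the PGAM5 KD against 588, 593 and 597 FPKM in the DRP1 KD (-0.22, SE 0.025, adjusted p = 0.00094). Lgmn, the asparaginyl endopeptidase legumain, had 225, 219.9 and 224 FPKM in the PGAM5 KD against 237, 244 and 245 FPKM in the DRP1 KD (-0.12, SE 0.027, adjusted p = 0.017), a call lost on removing library 2 of the PGAM5 KD (0.063) or library 2 (0.076) or 3 (0.074) of the DRP1 KD. In all 3 genes the groups did not overlap.

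Ppt1 (ENSMUSG00000028657, chromosome 4, 122836242 to 122859175, plus strand), the thioesterase that takes palmitate off proteins, was the 1 gene of the 49 that rose. It had 49.4, 50.03 and 50.6 FPKM in the PGAM5 KD against 41.9, 43.2 and 42.2 FPKM in the DRP1 KD. Every PGAM5 KD library was above every DRP1 KD library (0.23, SE 0.028, adjusted p = 0.0014), and the call held in all 14 alternative settings. Its 3′ end overlaps that of Cap1, an actin regulator on the opposite strand, by 129 bases, which is 3.5% of its exonic length. Cap1 was more abundant and rose as well, with 209.8, 204 and 198 FPKM in the PGAM5 KD against 162, 166 and 165 FPKM in the DRP1 KD (0.31, SE 0.03, adjusted p = 0.00049). The sources used here give no strand setting, so reads of Cap1 in the shared stretch cannot be told apart from reads of Ppt1, and their part in its value was not tested.

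In the V-ATPase, the calls fell on some subunits of each sector and left out others. Of the 8 genes of the cytosolic V1 sector, 5 fell. Atp6v1a, whose product holds the ATP-splitting site, was the most abundant V-ATPase gene of the 15, with 289, 288 and 286 FPKM in the PGAM5 KD against 313, 311 and 307 FPKM in the DRP1 KD (-0.11, SE 0.024, adjusted p = 0.014, lost without DRP1 KD library 1 at 0.065 or 2 at 0.067). Atp6v1b2, the B subunit that alternates with A in the catalytic ring, had 64.6, 65.7 and 68.1 FPKM in the PGAM5 KD against 82.3, 79.6 and 82.2 FPKM in the DRP1 KD (-0.29, SE 0.031, adjusted p = 0.00073). Both genes had no overlap between groups, and whether their differences differ from each other was not tested.

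The central rotor subunit gene Atp6v1d (ENSMUSG00000021114, chromosome 12, 78840725 to 78861638, minus strand) had 27.6, 26.5 and 31.2 FPKM in the PGAM5 KD against 38.6, 39.7 and 37.5 FPKM in the DRP1 KD (-0.43, SE 0.059, adjusted p = 0.0023). PGAM5 KD library 3 was the highest of its group, as it was for Atp6v1b2, Atp6v1c1, Atp6v1h and Atp6ap2, and still below all DRP1 KD libraries. Atp6v1c1, the C subunit that joins the sectors, had 66.7, 67.2 and 73.5 FPKM in the PGAM5 KD against 82.0, 82.3 and 79.6 FPKM in the DRP1 KD (-0.23, SE 0.042, adjusted p = 0.0072). Atp6v1h, a regulatory subunit, had 28.0, 29.1 and 30.6 FPKM in the PGAM5 KD against 32.7, 33.1 and 31.8 FPKM in the DRP1 KD (-0.15, SE 0.04, adjusted p = 0.031). That call was lost on leaving out each library in turn, save PGAM5 KD library 3 (adjusted p 0.061 to 0.11). The genes of the stalks and the F subunit were not called: Atp6v1e1 had a log2 difference of -0.02, Atp6v1f of under 0.01 in size and Atp6v1g1 of 0.02, each with overlapping groups. Their adjusted p were 0.79, 0.97 and 0.84.

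Of the 5 V0 genes, the 2 that encode forms of the d subunit, which couples the rotor to the ring of c subunits, fell. Atp6v0d1, the widely expressed form with a CLEAR core across its start site, had 223, 216 and 227.4 FPKM in the PGAM5 KD against 254, 253 and 255 FPKM in the DRP1 KD (-0.19, SE 0.028, adjusted p = 0.0031). Atp6v0d2, a form known from osteoclasts and some macrophages, had 5.39, 5.26 and 5.77 FPKM in the PGAM5 KD against 6.67, 6.91 and 6.63 FPKM in the DRP1 KD, from 780 and 1019 reads (-0.26, SE 0.048, adjusted p = 0.0077). Both forms were lower in every PGAM5 KD library than in any DRP1 KD library. Their coding sequences were 65.9% identical (694 of 1053 bases) and shared no stretch of 100 bases at 97% identity, and whether their changes differ from each other was not tested. Atp6v0a1, the a1 form of the subunit with the proton channels, had a log2 difference of -0.03, with 46.5 to 50.4 FPKM in the PGAM5 KD against 49.5 to 50.3 FPKM in the DRP1 KD. Atp6v0b, of the proton-carrying ring, had 0.01, with 213 to 223 FPKM in the PGAM5 KD against 213 to 222 FPKM in the DRP1 KD, and both overlapped between the groups.

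The ring gene Atp6v0c (ENSMUSG00000024121, chromosome 17, 24163866 to 24169702, minus strand) was listed at 4.13, 4.38 and 5.00 FPKM in the PGAM5 KD against 5.01, 4.76 and 4.24 FPKM in the DRP1 KD, the lowest level of the 15, with overlapping groups (-0.04, SE 0.079, adjusted p = 0.72). A processed pseudogene on another chromosome, Atp6v0c-ps2 (ENSMUSG00000080242, chromosome 6, 37806086 to 37806550, plus strand), holds 387 bases of it at 99.7% identity and was looked up after these values were seen. That row stood at 1211, 1213 and 1246 FPKM in the PGAM5 KD against 1449, 1453 and 1449.9 FPKM in the DRP1 KD, higher than any of the 49 genes in every library. Its groups did not overlap and it was called lower (-0.25, SE 0.026, adjusted p = 0.00075). It held 29823 reads over the PGAM5 KD libraries and 37593 over the DRP1 KD libraries, beside 800 and 873 for Atp6v0c itself. Reads within the shared 387 bases match both rows almost equally, so the value listed for Atp6v0c is uncertain and the deposited values do not settle whether it changed. How the submitters' counting divided such reads was not tested.

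Of the accessory proteins, Atp6ap2 (ENSMUSG00000031007, chromosome X, 12587801 to 12617049, plus strand), the prorenin receptor, which is needed to assemble the pump, had the largest difference of the 49 genes. It had 62.5, 63.5 and 68.1 FPKM in the PGAM5 KD against 88.6, 87.2 and 87.8 FPKM in the DRP1 KD (-0.44, SE 0.037, adjusted p = 0.00027). The DRP1 KD libraries lay close together and the groups did not overlap. In mean FPKM Ids fell more (31.7%), since the log2(FPKM + 1) scale understates changes of low genes, and Atp6ap2 fell by 26.4%. Atp6ap1, its partner among the accessory proteins, had 115.6, 108.8 and 114 FPKM in the PGAM5 KD against 113, 117 and 119.9 FPKM in the DRP1 KD, with overlapping groups (-0.05, SE 0.035, adjusted p = 0.37).

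**Figure D4:**
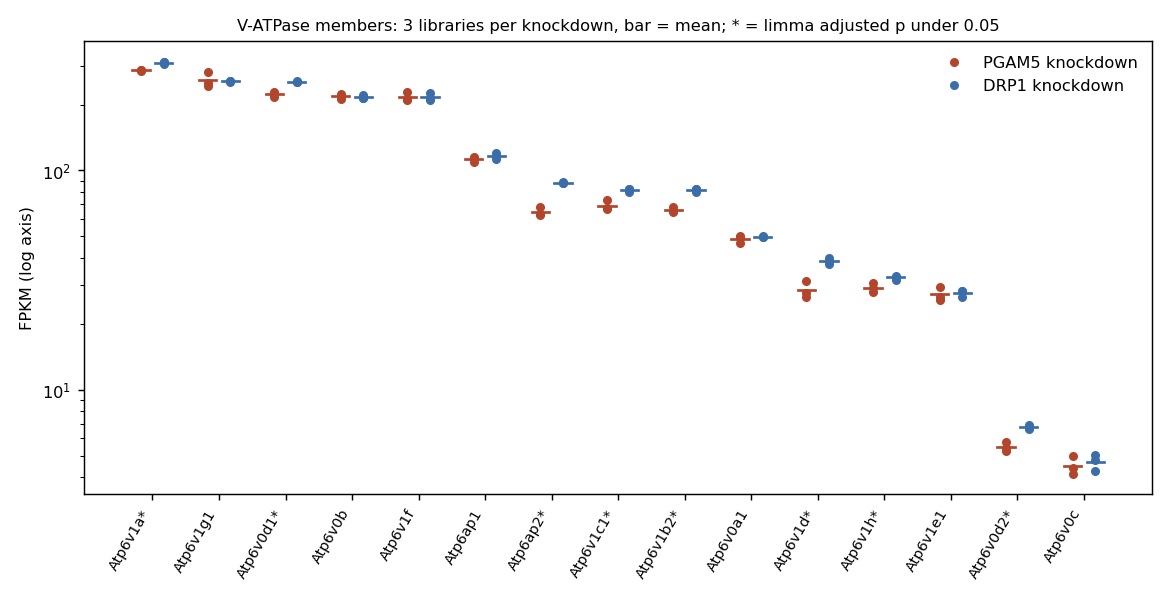
FPKM of the 15 V-ATPase genes on a log axis, from the most to the least abundant, with 3 libraries per knockdown as points, means as bars and an asterisk where the limma adjusted p was under 0.05. Atp6v1a at 286 to 313 FPKM is the highest and Atp6v0c, whose row shares sequence with an abundant pseudogene row, is the lowest at 4.13 to 5.01 FPKM. The 8 genes with an asterisk have all red points below the blue ones.

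Summed over the 34 hydrolase and membrane genes, levels were 2730, 2692 and 2755 FPKM in the PGAM5 KD against 3041, 3053 and 3063 FPKM in the DRP1 KD, where the mean fell by 10.7%. Of the sum, Grn, Lamp1 and Psap made 1240 to 1269 FPKM in the PGAM5 KD and 1422 to 1434 FPKM in the DRP1 KD. The V-ATPase genes summed to 1637, 1624 and 1718 FPKM in the PGAM5 KD against 1787, 1781 and 1771 FPKM in the DRP1 KD, where the mean fell by 6.7%. By role, the mean sum in the PGAM5 KD was lower in all 9. It fell by 15.0% for the cholesterol and neutral lipid group (with Pla2g15) and by 13.2% for the accessory proteins. For the group of proteins and their modification it fell by 11.9%, and most of that group's sum is Grn. The mean sum fell by 11.1% for glycosaminoglycans, by 10.1% for the membrane, by 9.2% for sphingolipids and by 7.6% for glycogen and glycoproteins. For V0 it fell by 6.0% and for V1 by 5.8%. These sums follow the most abundant genes and were not tested. Atp6v0c entered those of the V-ATPase and of V0 at its uncertain listed value, without the reads of Atp6v0c-ps2.

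Other genes of the lysosome, outside the 49, were counted by the same test. Of 21 tested genes listed as other lysosomal hydrolases, 11 (52.4%) fell, 2 rose and 8 were not called (median -0.13), beside 11.7% of all genes that fell. The list, called hydrolases below, also holds proteins of other kinds, such as the acetyltransferase Hgsnat. Creg1, a glycoprotein of the lysosome, had 59.4 ± 2.6 FPKM in the PGAM5 KD and 80.2 ± 3.95 FPKM in the DRP1 KD (-0.43, adjusted p = 0.0008). Scpep1, a serine carboxypeptidase, had 132.5 ± 1.37 FPKM in the PGAM5 KD and 175 ± 2.52 FPKM in the DRP1 KD (-0.40, adjusted p = 8e-05). Those that rose were Hyal2, a hyaluronidase, with 8.53 ± 0.591 FPKM in the PGAM5 KD and 6.56 ± 0.483 FPKM in the DRP1 KD (0.33, adjusted p = 0.01), and Hgsnat, the acetyltransferase that works beside Sgsh and Naglu on heparan sulfate, with 31.4 ± 1.63 FPKM in the PGAM5 KD and 18.8 ± 0.617 FPKM in the DRP1 KD (0.71, adjusted p = 8.8e-05). Of 23 tested genes of other lysosomal membrane proteins, 12 (52.2%) fell, 2 rose and 9 were not called (median -0.18). The largest drops were in Laptm4b, a membrane protein of late endosomes and lysosomes, Slc11a1, which moves metal ions out of phagosomes, and Slc36a1, an amino acid exporter, at -0.95, -0.64 and -0.53. Slc15a3, a peptide and histidine transporter, rose (0.41, adjusted p = 0.00029), as did Slc15a4 (0.20, adjusted p = 0.031), whose call did not survive leaving out any single library except PGAM5 KD library 3 (adjusted p 0.054 to 0.1).

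Of 11 other V-ATPase subunit genes 4 passed the filter on low values, and 2 of these fell: Tcirg1, the a3 form typical of lysosomes, with 119.7 ± 4.14 FPKM in the PGAM5 KD and 138 ± 1.81 FPKM in the DRP1 KD (-0.21, adjusted p = 0.0041), and Atp6v0e, a small V0 subunit (-0.14, adjusted p = 0.031, and 0.077 to 0.11 on leaving out any single library except PGAM5 KD library 3). Of 9 genes for assembly and regulation of the pump, 3 (33.3%) fell, 1 rose and 5 were not called. Wdr7, which works with the DMXL proteins on the pump, was the 1 of these called in all 14 alternatives (-0.24, adjusted p = 0.01), and the calls of Ncoa7, Oxr1 and Ccdc115 were each lost without some libraries: Ncoa7 (highest adjusted p 0.14) on leaving out any single library except DRP1 KD library 1, and Oxr1 and Ccdc115 (highest 0.085 each) without library 2 of the PGAM5 KD or any library of the DRP1 KD. Of 16 genes that deliver enzymes to lysosomes, such as the mannose phosphate machinery, 2 fell (Gga2 and Nagpa, at -0.24 and -0.15), 1 rose (Sort1, at 0.31, lost without library 1 or 2 of the PGAM5 KD or library 2 or 3 of the DRP1 KD, adjusted p 0.053 to 0.083) and 13 were not called. That is 12.5% lower, beside 11.7% of all genes. Without library 3 of the PGAM5 KD, the library that stood apart, 5 of the 16 fell, with Gnptg (adjusted p = 0.044), M6pr (0.011) and Sumf1 (0.0083) added.

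Among 16 tested genes that control the lysosomal programme, 6 (37.5%) fell, 2 rose and 8 were not called, beside 11.7% of all genes that fell. The count that fell was 2 without library 1 or 3 of the DRP1 KD, 3 without its library 2 and 4 without library 2 of the PGAM5 KD. Tfeb was close to the filter, with 1.65 ± 0.0225 FPKM in the PGAM5 KD and 1.61 ± 0.197 FPKM in the DRP1 KD (0.02, adjusted p = 0.86). Tfe3 was the most abundant of the 3 CLEAR-binding factors, with 15.2 ± 0.426 FPKM in the PGAM5 KD and 16.4 ± 0.142 FPKM in the DRP1 KD (-0.11, adjusted p = 0.06), and Mitf had 5.09 ± 0.229 FPKM in the PGAM5 KD and 4.70 ± 0.177 FPKM in the DRP1 KD (0.10, adjusted p = 0.22). The groups of Tfe3 did not overlap, with 14.7 to 15.5 FPKM in the PGAM5 KD against 16.3 to 16.6 FPKM in the DRP1 KD, and it was called lower with quantile normalization (adjusted p = 0.044) and with voom on recovered reads (0.03), while its adjusted p was 0.051 to 0.17 in the other alternatives. None of the 3 passed the threshold otherwise, and their activity, which depends on where the proteins are in the cell, was not measured. Flcn, which helps to keep TFEB and TFE3 in the cytosol when amino acids are present, fell (-0.18, adjusted p = 0.0082), as did Max, an E-box binding partner of MYC (-0.17, adjusted p = 0.0047). Usf2, another factor that binds E-boxes, rose (0.24, adjusted p = 0.0043). Bhlhe40, an E-box repressor, fell (-0.18, adjusted p = 0.021), a call lost without library 2 of the PGAM5 KD or library 1 or 3 of the DRP1 KD (adjusted p 0.051 to 0.08). The calls of Fnip1, Fnip2 and Mcoln1, which fell, and of Rraga, which rose, were each lost without 3 to 5 single libraries too (adjusted p up to 0.14, 0.079, 0.067 and 0.081), among them libraries 1 and 3 of the DRP1 KD.

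**Figure D5:**
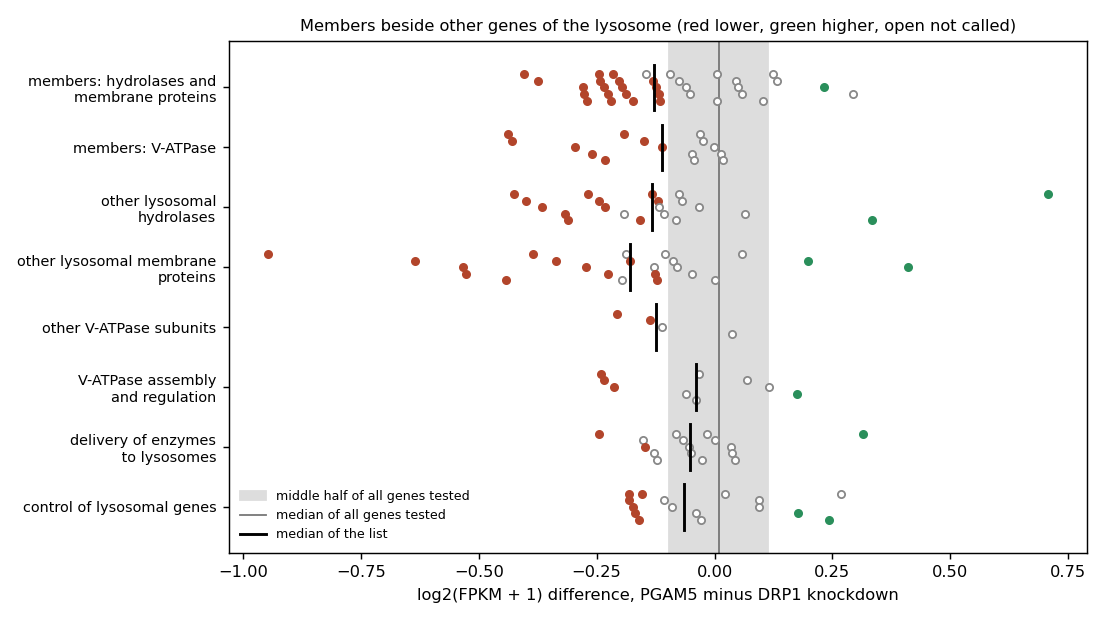
Log2(FPKM + 1) difference, PGAM5 KD minus DRP1 KD, of every tested gene in the 2 classes of the 49 genes and in 6 other lists of lysosomal genes. Red points fell, green points rose, open points were not called, black bars are list medians, and the grey band is the range between the 25th and 75th percentiles of all genes tested. The medians of hydrolases, membrane proteins and pump subunits lie left of the band, and those of assembly, delivery and control lie inside it.

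Some markers of the cells themselves differed in the same comparison. Cd68 is counted both among these markers and, above, among the other lysosomal membrane proteins that fell. Lyz2, the lysozyme of macrophages, had 1272 ± 71.9 FPKM in the PGAM5 KD and 1954 ± 8.85 FPKM in the DRP1 KD, and Csf1r, the receptor for their growth factor, 139 ± 4.69 FPKM in the PGAM5 KD and 212 ± 2.71 FPKM in the DRP1 KD. Their log2 differences (-0.62 and -0.60) were larger in size than that of any of the 49 genes, while Adgre1, Itgam, Spi1, Ptprc and Cd14 were not called. Mertk, the remaining marker, did not pass the filter. Osteoclasts are relatives of macrophages that secrete acid with the same pump and are rich in Atp6v0d2. Of 8 osteoclast markers 4 were tested: Ctsk fell (-0.64), Mmp9 (0.70) and Dcstamp (0.34) rose, and Nfatc1 was not called. Calcr, which defines osteoclasts, was at 0 in every library, and the call of Dcstamp was lost without library 3 of the PGAM5 KD or any library of the DRP1 KD (adjusted p 0.054 to 0.078). The osteoclast sum was 105.7 to 110.4 FPKM in the PGAM5 KD and 158.7 to 162.8 FPKM in the DRP1 KD, most of it Ctsk. The part of these marker changes in the results on the 49 genes was not tested.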

How the data were processed

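The authors deposited 1 FPKM value per gene and library for 54532 gene identifiers, which were not raw counts. Poly-A RNA was copied from random primers, per the labels' protocols, which name second-strand steps for libraries with and without strand. Per the submitters' processing notes, HISAT2 2.0.5, featureCounts 1.5.0-p3 and build mm10 were used. Annotation release, strand setting and FPKM formula were not stated there. Because FPKM is relative to a library's total, a few abundant genes can shift the rest, and reads that match near-identical copies can be dropped or credited to either.

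Symbols, coordinates and exonic lengths came from GENCODE M21 (Ensembl release 96, GRCm38), which matched 54495 identifiers and left 37 unmatched. Multiplied by exonic length and by 1 depth for each library, 96.1% of FPKM values above 0 came within 0.02 of whole reads, which gave the scaling totals in the report. They are not the reads assigned to genes: reads computed with these lengths summed to 17030470 to 23272464, above the scaling total in every library. Npc1 and Lipa gave no whole reads, and their reads are not printed. Genes with a mean of at least 1 FPKM entered limma 3.58.1 (R 4.3.3) as log2(FPKM + 1) (trended empirical Bayes, two-sided, Benjamini-Hochberg over 10634 genes, threshold 0.05). The log2(FPKM + 1) scale understates changes of low genes. The fit was also run on simulated libraries with known changes. There the extra spread was the same for all genes and no library stood apart, so that run does not cover the spread among these libraries. Shared sequence was searched with blastn 2.17.0 (at least 100 bases at 97% identity) and 14 of the 49 genes matched another gene. Identity of paralogs was computed with Biopython 1.88 from the longest open reading frames of coding transcripts, since no protein sequences were used here.

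The 49 genes and all lists were chosen with earlier results of these data known. All called members are named, with values in every library for the called and most abundant members of each role. From other lists up to 3 called genes with the largest differences were taken, and other names were added after their values were seen. The 14 alternatives were pseudocount 0.1, no expression filter, a mean FPKM of at least 5, quantile normalization, median-ratio scaling, no trend, a replicate block, voom on the recovered reads, and leaving out each library. Same-numbered samples did not deviate together (correlations 0.021, 0.031 and -0.00034), so the numbers were not treated as pairs.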

Additional observations from a re-analysis of the deposited data

How the results depend on the processing

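Over the 14 alternatives, 21 of the 28 called genes were called in every one (20 lower, 14 of them hydrolases and membrane proteins and 6 of the V-ATPase, and Ppt1 higher), and no called gene changed sign. Hydrolase and membrane genes called lower numbered 15 to 20 and V-ATPase genes 6 to 8, against 19 and 8, and none of the V-ATPase rose in any. Hydrolase and membrane genes called higher numbered 2 with a mean FPKM of at least 5, with the replicate block and with voom on recovered reads, against 1. The second was Pla2g15, whose adjusted p was 0.05, 0.023 and 0.021 in these, against 0.065. Quantile normalization added Hexa to those lower (adjusted p = 0.0041) and moved the V-ATPase median to -0.17, against -0.11. The cause was not tested. Of all genes tested, 2704 were called, and 1798 to 2738 with 1 library left out, the fewest without DRP1 KD library 2. With title numbers as a replicate block, 15 hydrolase and membrane genes and 6 V-ATPase genes were lower and 2133 genes were called. Voom on recovered reads called 3182 genes. The block lost Lamp2, Fuca1, Ids, Lgmn, Atp6v1a and Atp6v1h, and 2 of 6 libraries deviated most like their own number in the other group, so the block is not read as pairing. In the other lists, genes lower ranged from 8 to 12 for hydrolases (11 as reported), 9 to 15 for membrane proteins (12), 1 to 2 for pump subunits (2), 1 to 3 for assembly (3), 2 to 5 for delivery (2) and 2 to 8 for control (6). Genes higher were 2 throughout for hydrolases, 1 to 2 for membrane proteins (2), 0 to 2 for assembly (1), 0 to 1 for delivery (1) and 1 to 3 for control (2). Depth limits the lowest levels, where Ids had 590 reads over the PGAM5 KD libraries.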
